A study of Mus musculus with 96 samples.

Results

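The subject is the response of XY- mice to repeated restraint, read in the nucleus accumbens (NAc), a ventral part of the striatum. Libraries were taken by their labels alone, as those whose title names the NAc and whose genotype is XY- without the Sry transgene. They number 13 of the 48 NAc libraries and of the 96 libraries of the study, 6 from stressed mice and 7 from controls, and each is a different animal. The study used a mouse model with 4 genotypes in which the testis-determining gene Sry is missing from the Y chromosome (Y-) and is supplied, or not, by a transgene. The XY- mice therefore carry an X and a Y chromosome but have ovaries. The other genotypes were XX mice with ovaries, and XXSry and XY-Sry mice with testes. Stressed animals were restrained for 1 hour in each of 3 sessions spread over 6 days, every other day, and controls were not stressed. The labels do not give the age, the oestrous stage, the hour of dissection or the time between the last session and dissection. The XY- Stress mice came from cohort 1 (3 mice, replicates 14, 15 and 31) and cohort 3 (3 mice, replicates 26, 32 and 41). The XY- Control mice came from cohort 1 (3 mice, replicates 5, 6 and 13), cohort 2 (2 mice, replicates 36 and 44) and cohort 3 (2 mice, replicates 16 and 19). What a cohort stands for is not stated beyond its use as a batch.

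The accumbens consists mainly of GABA-releasing projection neurons that carry dopamine D1 or D2 receptors, and it takes part in reward, motivation and the behavioural response to stress. Restraint makes the adrenal glands release glucocorticoids. In brain cells these hormones bind the glucocorticoid receptor, which moves to the nucleus and switches on a well-known set of target genes within hours, among them Sgk1, Fkbp5 and Tsc22d3. Some targets act back on the response: the protein made from Fkbp5 lowers the receptor's affinity for the hormone. Glucocorticoids also restrain interferon and inflammatory genes.

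Values are given as counts-per-million (CPM), a gene's share of the reads counted for that library after TMM scaling, which is not corrected for gene length. Values after ± are standard deviations over animals, with n = 6 for Stress and n = 7 for Control unless stated. Total counts, in M (mega, counts per library), ran from 69.2 M to 79.2 M in the Stress libraries and from 65 M to 79.9 M in the Control libraries, with means of 74.9 ± 3.73 M in Stress and 73.1 ± 5.5 M in Control (SD). The difference of 1.81 M was within the spread (exact two-sided permutation test over 1716 splits, p = 0.505). Region and sex chromosome labels held up in each library, while the Stress and Control labels have no such check. The absence of the Sry transgene was not checked either, since Sry has no row under that name. Drd2, the dopamine D2 receptor, lay between 46.2 and 96.2 CPM in the 13 NAc libraries and between 0.464 and 0.967 CPM in the prefrontal cortex (PFC) libraries of the same mice. The Y-linked Ddx3y averaged 81.5 ± 12.8 CPM in Stress and 78.5 ± 4.79 CPM in Control libraries, and Xist, which is made from an inactive X, stayed at or below 2.99 CPM. Genes of cortical excitatory neurons varied widely within both groups: Slc17a7, the vesicular glutamate transporter of cortex, ran from 46.4 to 639 CPM in Stress (median 184) and from 50.1 to 411 CPM in Control (median 283). These are bulk punches, so fewer cells of a type and less RNA per cell cannot be told apart. The Control mice of cohort 3, replicates 16 and 19, stood apart from the other libraries in glucocorticoid-induced and microglial genes, so leading results that rest on them are given with and without them.

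Stress against control gave no gene past the threshold of an adjusted p of 0.05. The test was edgeR's quasi-likelihood test with cohort in the model, fitted on all 48 NAc libraries and adjusted by Benjamini-Hochberg over 19684 genes. It called 0 genes, 0% of those tested, and the lowest adjusted p was 0.728. At an unadjusted p below 0.05 there were 876 genes, which is 4.45% of those tested, with 425 higher (2.16%) and 451 lower (2.29%) in Stress. DESeq2 and limma-voom also called 0 genes, with 926 and 1606 at an unadjusted p below 0.05. The median standard error of a log2 fold change was 0.121, and the median size of a log2 fold change was 0.0825. In 7 genes (0.0356%) all Stress libraries were above all Control libraries, and in 10 genes (0.0508%) all were below.

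Since no gene was called, the genes with the smallest p in each direction are given as values, leaving out predicted genes and those under 0 log2 CPM. On the higher side they were led by Trpc5 on the X chromosome, which encodes a calcium-permeable channel. Trpc5 ranged from 10.9 to 19.3 CPM in the 6 Stress libraries (median 12.7) and from 8.12 to 11.5 CPM in the 7 Control libraries (median 9.36), a log2 fold change of 0.49 (SE 0.139) with an unadjusted p of 0.000957. Stress replicates 15 and 26 held the highest values, and the groups overlapped through Stress replicates 14 and 41 and Control replicate 6. The adhesion molecule Ncam1 had 355 ± 23.2 CPM in Stress and 318 ± 12.6 CPM in Control libraries, a difference of 0.15 (SE 0.0432) on the log2 scale. Bach2, a transcription repressor best known from B cells, was the only one of these 20 genes on the higher side whose groups were separate, with 14.8 to 18.8 CPM in Stress against 12.96 to 14.01 CPM in Control. Esyt1, Minar1, Nlrc3, Frmpd3, Pard3b, Pcdha2 and Hmbox1 completed this side, with log2 fold changes from 0.15 to 0.70.

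On the lower side the smallest p belonged to the glucocorticoid target Sgk1, described next. Elovl2, which lengthens polyunsaturated fatty acids, ran from 10.5 to 14.5 CPM in Stress (median 12.5) and from 14.1 to 15.9 CPM in Control (median 15.0), a log2 fold change of -0.29 (SE 0.0743) with an unadjusted p of 0.000289. Sumo2, a small modifier protein joined to other proteins, ran from 18.5 to 21.5 CPM in Stress (median 20.3) and from 22.8 to 24.9 CPM in Control (median 24.5). The Sumo2 values of the groups did not overlap, and nor did those of the membrane protein gene Tmem41a, at 11.8 to 13.7 CPM in Stress against 13.96 to 17.4 CPM in Control. Their log2 fold changes were -0.24 and -0.26, and both lay between -0.30 and -0.19 within each of cohorts 1 and 3. Slc25a5 (the mitochondrial carrier of ADP and ATP), Htra1 (a secreted protease), Pmepa1, Plin4, Cdkn1a and Chn1 were the others, with log2 fold changes from -1.69 in Plin4 to -0.17 in Slc25a5. Htra1 was at -0.31 over the 13 libraries and at -0.12 without the cohort 3 controls. None of these 20 genes passed the adjusted threshold.

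Some glucocorticoid-induced genes had their highest NAc levels in 2 unstressed XY- mice of cohort 3, not in restrained mice. This held against the other 46 NAc libraries for 10 of the 22 tested genes, where 0.869% of all genes met that condition. Of the 22 tested genes of this list, 0 were called, 5 had a log2 fold change above 0, 9 were lower at an unadjusted p below 0.05 and 0 were higher, where 2.29% and 2.16% of all genes were. A further listed gene, Ctgf, has no row under that name and was not used here. The list's median log2 fold change was -0.19, against 0.01 over all genes tested, of which 52.8% lay above 0. Without the pair of cohort 3 controls the list's median was 0.08.

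Sgk1 encodes the serum- and glucocorticoid-regulated kinase and lies at chr10:21882184-21999903, + strand (GRCm38, GENCODE M21). In Stress mice it measured 54.1, 63.7 and 52.6 CPM in cohort 1 and 45.8, 50.2 and 52.2 CPM in cohort 3. In Control mice it measured 66.6, 55.5 and 50.8 CPM in cohort 1, 94.6 and 83.5 CPM in cohort 2, and 127 and 125 CPM in cohort 3. The cohort 3 Stress mice were all below those of cohort 1, the cohort 1 controls overlapped the Stress mice, and the controls of cohorts 2 and 3 were above every Stress library. The log2 fold change over the 13 libraries was -0.62 (SE 0.155), with an unadjusted p of 0.000266. It was -0.16 without the cohort 3 controls, -0.02 within cohort 1 and -1.35 within cohort 3.

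Plin4 (chr17:56100591-56109803, - strand) encodes a perilipin, a coat protein of lipid droplets. It had 1.88 ± 0.478 CPM in Stress and 6.63 ± 7.90 CPM in Control libraries, and the large spread of the controls came from 16.4 and 19.8 CPM in the cohort 3 pair against 1.36 to 3.60 CPM in the other 5 controls. Its log2 fold change of -1.69 (SE 0.477) became 0.27 without that pair. Hif3a (chr7:17031507-17062427, - strand), a subunit of the hypoxia-inducible factors that is also a glucocorticoid target, measured 23.7 and 20.5 CPM in the cohort 3 controls. Its 6 Stress libraries lay between 6.49 and 9.24 CPM. In cohort 1 alone Hif3a was higher in Stress, with no overlap: 6.49 to 8.46 CPM against 5.42 to 5.69 CPM in Control, a log2 fold change of 0.47 that did not pass the adjusted threshold.

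Promoter sequences of these 3 genes are shown because the receptor acts through DNA elements, the best known being a pair of AGAACA half-sites facing each other across 3 bases. Each window covers the 250 bases before a RefSeq transcription start of GRCm38.p6, written 5′ to 3′ on the gene's own strand, with matches of the half-site on either strand (AGAACA or TGTTCT), and of the full element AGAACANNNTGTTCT, in capitals. Of the 6 windows of Sgk1, the one with a full match is printed. The coordinates are chr10:21993640-21993889 on the + strand for Sgk1, chr7:17062428-17062677 on the - strand for Hif3a and chr17:56109783-56110032 on the - strand for Plin4.
Sgk1: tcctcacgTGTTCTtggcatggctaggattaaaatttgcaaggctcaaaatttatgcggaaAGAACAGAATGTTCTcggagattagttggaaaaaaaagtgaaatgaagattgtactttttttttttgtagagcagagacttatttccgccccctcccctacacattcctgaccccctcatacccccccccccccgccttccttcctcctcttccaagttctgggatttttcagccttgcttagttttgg
Hif3a: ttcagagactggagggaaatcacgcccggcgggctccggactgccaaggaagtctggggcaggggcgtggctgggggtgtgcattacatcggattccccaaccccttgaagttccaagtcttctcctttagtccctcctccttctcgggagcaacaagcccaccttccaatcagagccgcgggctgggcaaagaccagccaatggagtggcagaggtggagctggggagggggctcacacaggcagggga
Plin4: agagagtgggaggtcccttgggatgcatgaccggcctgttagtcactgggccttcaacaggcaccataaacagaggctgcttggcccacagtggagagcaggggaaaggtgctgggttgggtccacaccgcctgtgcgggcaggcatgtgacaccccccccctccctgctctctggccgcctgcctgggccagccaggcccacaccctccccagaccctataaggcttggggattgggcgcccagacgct

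The Sgk1 window held 1 full match, starting 189 bases before the start, and a further half-site match near its 5′ end, while the windows of Hif3a and Plin4 held neither motif. Across all 32851 windows of this length the full element was found in 3 (0.00913%), and a half-site in 16.1%. RefSeq windows were matched for 21 of the 23 listed genes, and 5 of their 31 windows (16.1%) held a half-site, the same share as over all windows. A match of letters is not a shown binding site, and no match says only that these letters are not in these 250 bases.

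Most other leading members of the list were also highest in the cohort 3 controls. Arrdc2, an arrestin-like adaptor of protein sorting, measured 16.4 and 19.6 CPM in that pair, against 5.69 to 7.78 CPM in the 6 Stress libraries. Sult1a1, a sulfotransferase of phenols and steroids, measured 13.7 and 10.997 CPM in the pair and at most 6.86 CPM in Stress. Tsc22d3, whose product GILZ mediates anti-inflammatory effects of the hormone, measured 71.6 and 54.3 CPM in the pair and at most 49.4 CPM in Stress. Fkbp5, the co-chaperone of the receptor, ran from 24.3 to 38.99 CPM in Stress (median 34.4) and from 34.9 to 52.1 CPM in Control (median 38.1), with its 2 highest values, 52.1 and 42.5 CPM, again in the pair. Ddit4, an inhibitor of the growth regulator mTORC1, had 19.4 ± 1.91 CPM in Stress and 22.8 ± 3.47 CPM in Control libraries, and its highest control values were also those of the pair. Over the 13 libraries the log2 fold changes were -0.51 for Arrdc2, -0.48 for Sult1a1, -0.09 for Tsc22d3, -0.25 for Fkbp5 and -0.23 for Ddit4. Without the pair they were 0.14, 0.17, 0.16, -0.08 and -0.06 in the same order. Cdkn1a, the cell cycle inhibitor p21, did not follow the pair. Its highest values were 13.02 CPM in Control replicate 19 of cohort 3 and 12.4 CPM in Control replicate 5 of cohort 1, and its log2 fold change of -0.45 (SE 0.13) was -0.34 without the pair.

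The rest of the list gave smaller values. Klf9, a transcription factor induced by the hormone in neurons, averaged 143 ± 17.8 CPM in Stress and 161 ± 15.98 CPM in Control libraries, and Nfkbia, an inhibitor of the inflammatory factor NF-kappa B, averaged 10.7 ± 1.03 and 12.5 ± 2.87 CPM; both were lower at an unadjusted p below 0.05. The clock gene Per1 and the metallothioneins Mt1 and Mt2, which bind metals, were level, with log2 fold changes of 0.01 (SE 0.112), 0.01 (SE 0.105) and 0.10 (SE 0.136). Zbtb16, a transcription factor, was at 0.14 (SE 0.242), Pdk4, which turns down glucose oxidation, at -0.11 (SE 0.102), and the phosphatase Dusp1 at -0.22 (SE 0.153). Errfi1, Gjb6, Map3k6 and Tob2 lay between -0.23 (Map3k6) and -0.03 (Tob2). Lcn2, an acute phase protein, was near the detection limit, with means of 0.140 CPM in Stress and 0.143 CPM in Control. Plin4 and Sult1a1 overlap a measured gene on the other strand, and the counting is not stated to use strand, so reads of the partners cannot be told apart.

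**Figure D1:**
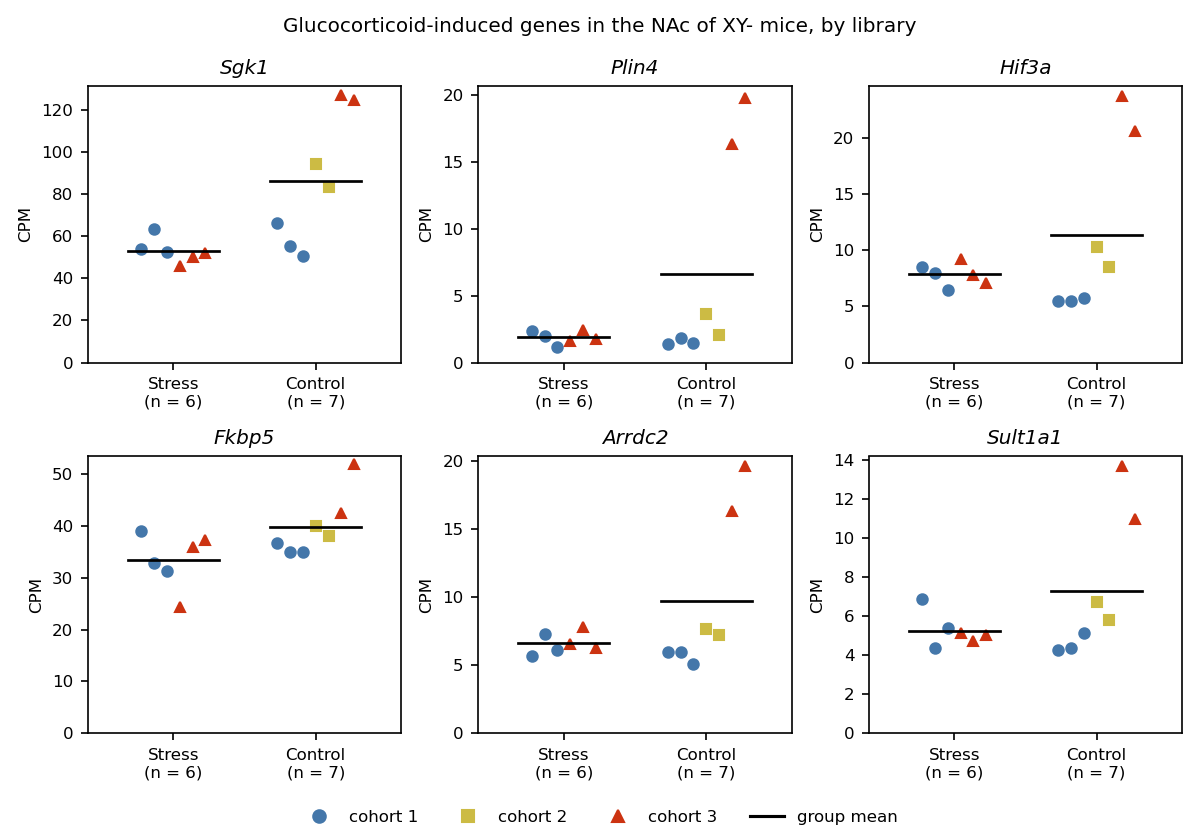
Levels of 6 glucocorticoid-induced genes in CPM (vertical axes, starting at 0) in each NAc library of XY- mice, Stress left of Control; colour and symbol give the cohort and the line the group mean. The cohort 3 controls reach 127 and 125 CPM of Sgk1, while the Stress libraries of cohorts 1 and 3 lie together between 45.8 and 63.7 CPM.

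The difference between cohorts was then tested directly, a comparison added after these values were seen. It took the stress effect in cohort 3 minus that in cohort 1, on the 11 NAc libraries of those cohorts. edgeR's quasi-likelihood test called 3 of 19530 genes (0.0154%), and all 3 were of the glucocorticoid-induced list. The log2 difference was -3.47 for Plin4 (SE 0.382, adjusted p = 0.00815), -1.93 for Hif3a (SE 0.205, adjusted p = 0.00815) and -1.33 for Sgk1 (SE 0.168, adjusted p = 0.0231). Arrdc2 had a difference of -1.55 with an edgeR adjusted p of 0.0535. In all, 1453 genes (7.44%) had an unadjusted p below 0.05. DESeq2 called 196 genes (1%) in the same comparison, 128 higher (0.655%) and 68 lower (0.348%), and limma-voom called 7. Of the 22 list members tested, 9 were lower at an unadjusted p below 0.05, against 3.67% of all genes, and DESeq2 called 7, all lower. Leaving out either cohort 3 control, with the other assumed to vary like the rest, left 0 genes called by edgeR, as did leaving out Control replicate 13 of cohort 1, and leaving out Stress replicate 32 gave 19.

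The same 2 mice were high in the PFC as well, in libraries made from another brain region. Their PFC levels of Sgk1 were 56.9 and 53.3 CPM, against 30.2 to 50.9 CPM in the other 46 PFC libraries of the study. For Plin4 they were 5.99 and 4.76 CPM against at most 2.18 CPM, and for Hif3a 19.1 and 13.8 CPM against at most 7.69 CPM. In the NAc the pair was above the other 46 libraries in 10 of the 22 list members, where 171 of all genes (0.869%) met that condition. In the PFC it was so in 11 of the 22, where 365 of all genes (1.85%) did. Tested in the PFC of the same 11 mice, the cohort difference was past edgeR's adjusted threshold for 198 of 19086 genes (1.04%), among them 5 list members, all lower: Hif3a at -1.58, Sult1a1 at -1.78, Sgk1 at -0.71, Tsc22d3 at -0.64 and Fkbp5 at -0.59 on the log2 scale. The remaining unstressed mouse of cohort 3 in the study, an XY-Sry mouse, measured 46.05 CPM of Sgk1, 1.47 CPM of Plin4 and 7.67 CPM of Hif3a in the NAc, inside the range of the other libraries. The handling of these mice is not described in the labels, so what separates them was not tested. In both regions the title of Control replicate 19 carries the tag (NT), whose meaning the labels do not give. Their NAc total counts, 68.9 M and 65 M, were below the other 11 libraries, which began at 69.2 M. Their levels of homeostatic microglia, chemokine and myelin genes were also the lowest of the 13 libraries, as given below for microglia, while endothelial marker levels of 4.31 and 4.41 on the mean log2 CPM scale lay within the range of 4.22 to 4.41 over the 13 libraries. The part of depth and of cell makeup in these results was not tested.

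**Figure D2:**
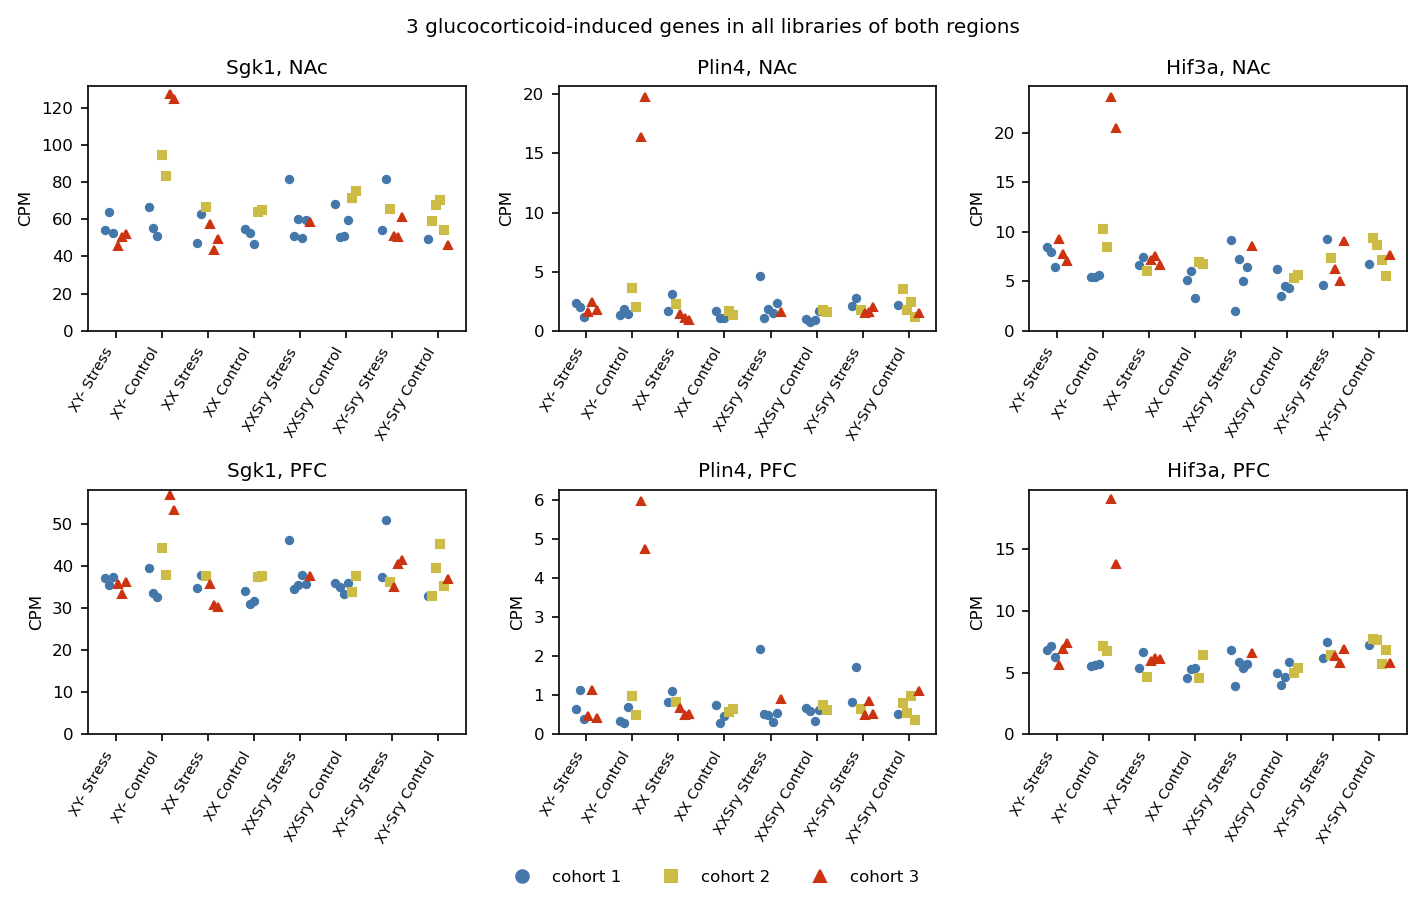
Sgk1, Plin4 and Hif3a in CPM (vertical axes, starting at 0) in each of the 48 NAc libraries (top) and 48 PFC libraries (bottom), by genotype with Stress left of Control; colour and symbol give the cohort. In both regions the cohort 3 XY- controls hold the 2 highest values of each gene, for example 19.8 and 16.4 CPM of Plin4 in the NAc.

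The receptors and regulators of the stress axis had values near 0 in most members. Nr3c1, the glucocorticoid receptor, had 131 ± 10.6 CPM in Stress and 132 ± 20.1 CPM in Control libraries, a log2 fold change of 0.01 (SE 0.0865), and Nr3c2, the mineralocorticoid receptor, had 71.7 ± 8.11 CPM in Stress and 74.9 ± 4.90 CPM in Control libraries. The 2 controls with high target genes had the lowest Nr3c1 of the control group, 101 and 113 CPM. Of the 18 tested genes of this list, 1 was higher and 1 was lower at an unadjusted p below 0.05, where 2.16% and 2.29% of all genes were. The median log2 fold change was 0.01. The higher one was Avpr1a, a vasopressin receptor, at 0.651 to 2.64 CPM in Stress and 0.191 to 1.20 CPM in Control, and the lower one was Fkbp5. Adcyap1r1, the receptor of the stress peptide PACAP, had a log2 fold change of 0.11 (SE 0.0653).

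Interferon-induced genes had medians of opposite sign in the cohorts. Over the 13 libraries, 29 of the 32 antiviral effectors had a log2 fold change above 0, but 0 had an unadjusted p below 0.05 and the median was 0.29. Within cohort 1 the median was -0.60, with 31 of 32 genes below 0, and within cohort 3 it was 1.74, with 32 of 32 above 0. In the test of the cohort difference, 32 of the 32 had an unadjusted p below 0.05 in the higher direction, against 3.77% of all genes. edgeR called 0 of them after adjustment, and DESeq2 called 19 of the 32, all higher, where it called 0.655% of all genes higher. The median log2 difference of the list was 2.32, and it lay between 2.03 and 2.70 when each of the 11 libraries was left out in turn. Genes of this list share a common inducer and are not independent of each other.

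Ifit1, which binds foreign RNA, shows the pattern gene by gene. In Stress it measured 7.42, 2.51 and 8.52 CPM in cohort 1 and 25.9, 5.68 and 19.2 CPM in cohort 3. In Control it measured 10.2, 16.4 and 22.3 CPM in cohort 1, 17.9 and 13.3 CPM in cohort 2, and 1.45 and 4.55 CPM in cohort 3. The cohort 1 controls were thus above the cohort 1 Stress mice, and the cohort 3 controls below the cohort 3 Stress mice, with no overlap in either cohort. Oasl2, another antiviral effector, ran from 4.21 to 70.2 CPM in Stress (median 17.1) and from 2.92 to 37.1 CPM in Control (median 21.3), with its lowest Control values, 2.92 and 9.06 CPM, in the same pair. Slfn5, Ifi27 and Xaf1 had log2 fold changes of 0.23, 0.32 and 0.34 over the 13 libraries, and of 0.07, 0.12 and 0.15 without that pair. Without the cohort 3 controls the median of the list was -0.11. Members of the Ifit and Oas families have close copies between which reads can be split, so single values are uncertain.

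Most other immune lists had medians on opposite sides of 0 in the cohorts, MHC class II being an exception at 0.03 within cohort 1 and 0.78 within cohort 3. The interferon-induced GTPases had a median of 0.18 over the 13 libraries, -0.52 within cohort 1, 1.47 within cohort 3 and -0.19 without the cohort 3 controls. For MHC class I and peptide loading, the machinery that displays peptides to T cells, the medians were 0.17, -0.41, 1.06 and 0.07 in the same order. The classical gene H2-D1 ran from 19.4 to 65.3 CPM in Stress (median 28.5) and from 19.9 to 34.5 CPM in Control (median 27.4), with its highest value in Stress replicate 41. All 16 homeostatic microglia genes had a log2 fold change above 0, with a median of 0.07, but the median was -0.08 without the cohort 3 controls, -0.20 within cohort 1 and 0.53 within cohort 3. Chemokines and cytokines had a median of 0.29, with -0.30 within cohort 1, 1.79 within cohort 3 and 0.04 without those controls. For activated microglia the values were 0.26, -0.24, 0.89 and 0.04. Leaving out Stress replicate 41 alone brought the chemokine median to 0.05, the activated microglia median to 0.07 and that of the GTPases to -0.06. Fcrls, a microglial receptor-like gene, measured 10.2 and 10.3 CPM in the cohort 3 controls and 14.4 to 20.2 CPM in Stress. Sall1, which keeps microglial identity, and Trem2, a lipid-sensing receptor, had log2 fold changes of 0.13 and 0.17, and of 0.01 and 0.08 without the cohort 3 controls. Stress replicate 41 was highest of all 13 libraries for Cybb at 4.85 CPM, Clec7a at 2.67 CPM and Cd74 at 3.33 CPM, markers of activated microglia and antigen presentation. Lpl, a lipase in the activated microglia list that neurons also make, went the other way at -0.47 (SE 0.158).

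**Figure D3:**
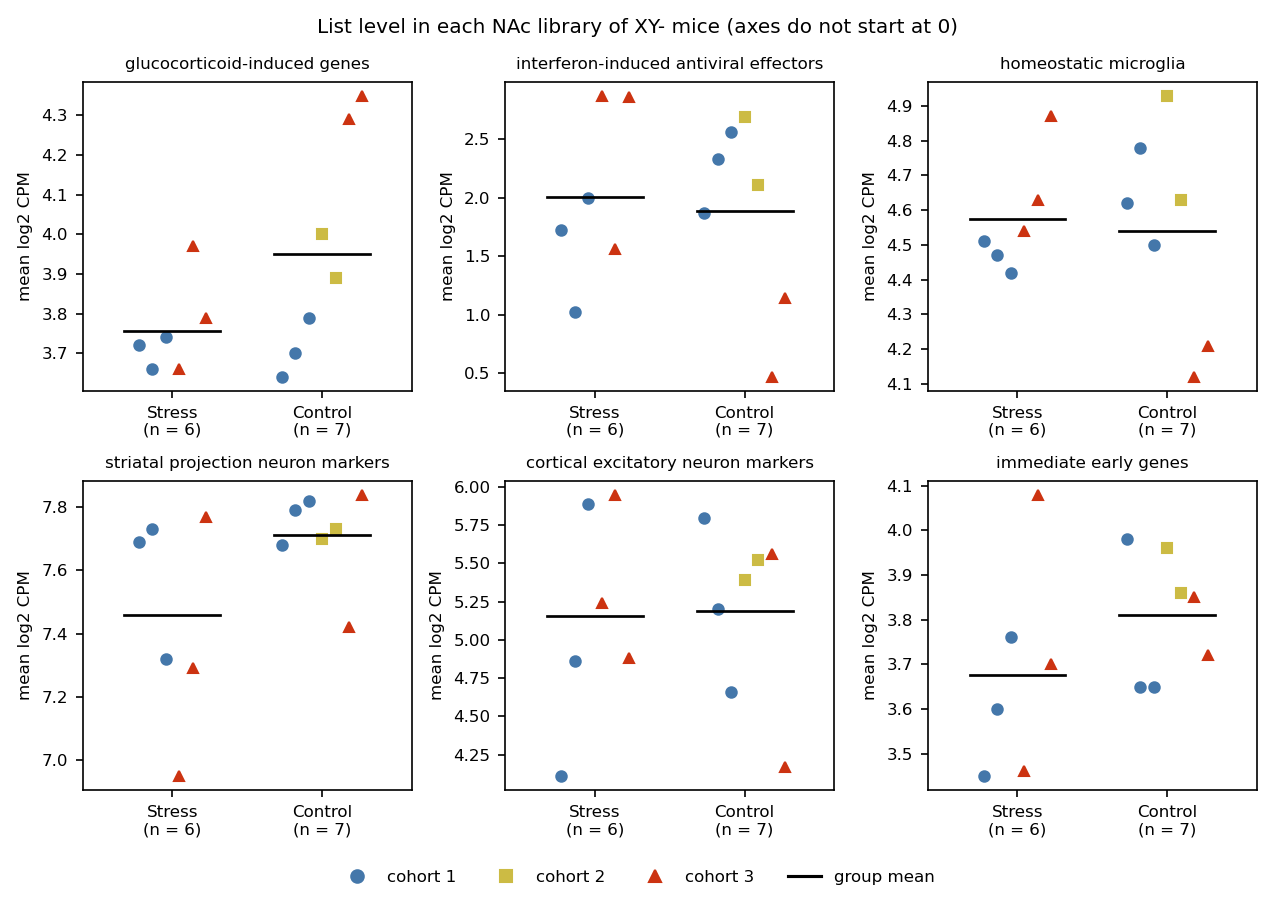
Mean log2 CPM of the tested genes of 6 lists (vertical axes, not starting at 0) in each NAc library of XY- mice, Stress left of Control; colour and symbol give the cohort and the line the group mean. The cohort 3 controls are highest for glucocorticoid-induced genes (4.29 and 4.35) and, at 4.12 and 4.21, lowest for homeostatic microglia.

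Genes of the striatal projection neurons had lower mean levels in Stress, with list medians below 0 in both cohorts. Of 23 tested markers, 19 had a log2 fold change below 0, and 7 were lower and 0 higher at an unadjusted p below 0.05, where 2.29% of all genes were lower. The median was -0.23 over the 13 libraries, -0.19 within cohort 1, -0.22 within cohort 3 and -0.26 without the cohort 3 controls. No marker was called. On the mean log2 CPM scale, Stress replicates 14, 15 and 41 had list levels of 7.69, 7.73 and 7.77, inside the control range of 7.42 to 7.84. Stress replicates 31, 32 and 26 lay below that range, at 7.32, 7.29 and 6.95.

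Penk encodes proenkephalin, the opioid peptide precursor of D2-receptor neurons. Penk ranged from 648 to 1037 CPM in the 6 Stress libraries (median 839) and from 942 to 1328 CPM in the 7 Control libraries (median 1092), a log2 fold change of -0.37 (SE 0.131) with an unadjusted p of 0.00661. Its Stress mean was lower in cohort 1 and in cohort 3, at -0.38 and -0.47, and the groups overlapped through Stress replicates 14 and 41 and Control replicate 16. Drd2 ran from 46.2 to 79.8 CPM in Stress (median 71.2) and from 51.8 to 96.2 CPM in Control (median 91.7), and Drd1, the dopamine D1 receptor, ran from 133 to 289.7 CPM in Stress (median 222) and from 197 to 284 CPM in Control (median 263). Pde10a, a cyclic nucleotide phosphodiesterase abundant in these neurons, had 738 ± 262 CPM in Stress and 987 ± 173 CPM in Control libraries. Ppp1r1b, which encodes the dopamine-regulated phosphatase inhibitor DARPP-32, had 589 ± 109.9 CPM in Stress and 752 ± 84.6 CPM in Control libraries. The adenosine receptor gene Adora2a had 102 ± 20.5 CPM in Stress and 135 ± 24.4 CPM in Control libraries. Rasd2 and Gpr6 had log2 fold changes of -0.40 (SE 0.159) and -0.32 (SE 0.149). In these genes Stress replicates 26 and 31 were among the lowest libraries, and Control replicate 16 was the lowest control. Penk, Pde10a and Ppp1r1b overlap a measured gene on the other strand.

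Other marker lists also differed between these libraries. Stress replicate 26 had the lowest striatal list level, 6.95 on the mean log2 CPM scale, together with the highest level of nuclear-retained transcripts, 7.20, and of ependymal and choroid plexus markers, 2.54. For the nuclear-retained list the other 12 libraries lay between 6.19 and 6.82. Over the 13 libraries that list's median log2 fold change was 0.17. Levels of cortical excitatory neuron markers ran from 4.11 to 5.95 in Stress and from 4.17 to 5.80 in Control, and the libraries lowest in striatal markers, Stress replicates 26, 32 and 31 and Control replicate 16, had 5.24, 5.95, 5.89 and 5.56. Control replicate 5, with a cortical level of 5.80, had a striatal level of 7.68, within the control range of 7.42 to 7.84. The cortical list had a median log2 fold change of 0.03, and septal and other neighbouring region markers one of 0.11. Leaving out replicate 26 changed the log2 fold change of Pde10a to -0.27 and that of Penk to -0.31. The part of dissection and RNA quality in the striatal differences was not tested.

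**Figure D4:**
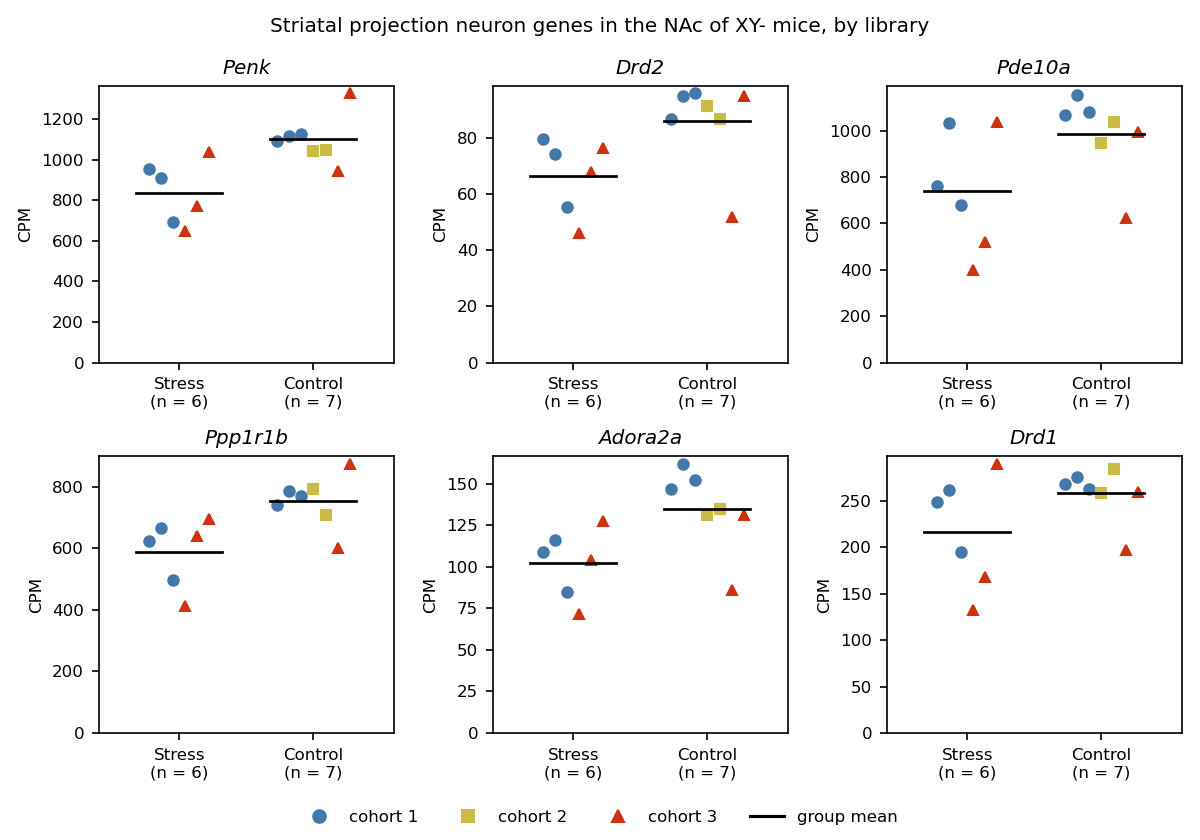
Levels of 6 projection neuron genes in CPM (vertical axes, starting at 0) in each NAc library of XY- mice, Stress left of Control; colour and symbol give the cohort and the line the group mean. For Penk the means are 835 CPM in Stress and 1099.6 CPM in Control, and the lowest control in all 6 panels is replicate 16 of cohort 3.

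Signalling genes of the same neurons gave similar values. In the dopamine and adenosine list 19 of 21 tested genes were below 0, and the median was -0.22. Of the 21 genes, 7 were lower at an unadjusted p below 0.05, against 2.29% of all genes. This list shares members with the striatal list. Arpp19, a cyclic AMP-regulated inhibitor of a protein phosphatase, had 322 ± 72.1 CPM in Stress and 419.6 ± 55.7 CPM in Control libraries, and the phosphodiesterase Pde1b had 629 ± 113 CPM in Stress and 804 ± 92.5 CPM in Control libraries. Among the opioid and neuropeptide genes the kappa receptor Oprk1 had a log2 fold change of -0.36 (SE 0.164), with 36.4 and 49.3 CPM in Stress replicates 26 and 32 and 82.6 to 110.0 CPM in Control. The delta receptor Oprd1 and the substance P precursor Tac1 had log2 fold changes of -0.20 (SE 0.109) and -0.29 (SE 0.191), and the median of the 19 genes was -0.01. Of 11 serotonin receptors, 2 were lower at an unadjusted p below 0.05, against 2.29% of all genes. They were the presynaptic receptor genes Htr1b, from 34.9 to 51.4 CPM in Stress (median 42.1) and from 45.8 to 66.3 CPM in Control (median 60.7), and Htr1d, at -0.33 (SE 0.141). The list's median was -0.01, and Htr6, a receptor abundant in striatum, was at -0.27 (SE 0.162).

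Immediate early genes, which neurons switch on soon after activity, had small differences. Of 31 tested, 24 were below 0 and 0 had an unadjusted p below 0.05. The median was -0.10, against 0.01 over all genes tested, of which 52.8% lay above 0. Fos had 7.18 ± 1.53 CPM in Stress and 8.60 ± 3.03 CPM in Control libraries, Fosb had 8.14 ± 1.81 CPM in Stress and 9.71 ± 0.7496 CPM in Control libraries, and Egr2, the member with the smallest p, had 2.15 ± 0.383 CPM in Stress and 3.22 ± 0.951 CPM in Control libraries. Homer1, a scaffold of glutamate receptors, and the phosphatase Dusp5 had log2 fold changes of -0.18 (SE 0.108) and -0.15 (SE 0.0999). Glutamate receptor genes had a median of -0.01 over 22 genes. The NMDA receptor subunit Grin3a was the single one at an unadjusted p below 0.05, from 56.5 to 83.4 CPM in Stress (median 68.6) and from 40.6 to 66.7 CPM in Control (median 55.2), with Grin2d at 0.33 (SE 0.192) and Grin2a at -0.19 (SE 0.142). GABA-A receptor subunits had a median of 0.04 over 14 genes.

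Genes of vessels and meninges gave values in both directions. Of 12 fibroblast genes, 11 were above 0 with a median of 0.39, which was 0.09 within cohort 1, 0.51 within cohort 3 and 0.26 without Stress replicate 41. Fmod, Dcn and Igf2 were higher at an unadjusted p below 0.05, where 2.16% of all genes were. Dcn, a matrix proteoglycan, ran from 1.84 to 7.11 CPM in Stress (median 4.15) and from 0.981 to 4.18 CPM in Control (median 1.83), and Igf2, a growth factor of the meninges, ran from 9.73 to 19.4 CPM in Stress (median 17.001) and from 8.08 to 14.5 CPM in Control (median 12.7). Ptgds, the prostaglandin D synthase, was lower at -0.47 (SE 0.211), but at -0.03 without the cohort 3 controls, whose levels were 148 and 162 CPM. The same held for the endothelial glucose transporter Slc2a1, at -0.24 (SE 0.0918) over the 13 libraries and 0.00 without that pair. Pecam1, an endothelial adhesion molecule, was -0.16 in both settings, and Ly6c1 was at -0.23 (SE 0.103) over the 13 libraries and -0.06 without the pair. Slc2a1, Pecam1 and Ly6c1 were the endothelial genes with the smallest p, and they do not stand for the list. Of its 13 tested genes, 5 were above 0 and 8 below, and the median was -0.04. The smooth muscle genes Myh11, Tagln and Acta2, those with the smallest p among pericyte and smooth muscle genes, were at 0.45, 0.38 and 0.42. Of the 9 tested genes of that list, 7 were above 0 and 2 below, with a median of 0.08, and 1 was higher at an unadjusted p below 0.05. Ttr, the defining transcript of choroid plexus, stayed at or below 4.96 CPM. Hbb-bs, haemoglobin of blood, ran from 27.1 to 71.8 CPM in Stress (median 51.3) and from 27.3 to 72.2 CPM in Control (median 46.9).

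The mitochondrial transcripts mt-Atp6 and mt-Nd3 had log2 fold changes of -1.74 (SE 0.538) and 3.42 (SE 1.27) that rest on 1 and 3 libraries. For mt-Atp6, Control replicate 5 measured 66.4 CPM, and the other 12 libraries lay between 1.96 and 6.84 CPM. mt-Nd3 measured 10.97, 10.8 and 6.51 CPM in Stress replicates 15, 41 and 26, and at most 0.691 CPM in the other 10 libraries. The same 3 mice measured 13.3, 10.8 and 8.60 CPM of mt-Nd3 in the PFC, and the others at most 0.281 CPM. For mt-Atp6, Control replicate 5 measured 3.05 CPM in the PFC, where Stress replicate 26 was highest at 58.4 CPM. Over the 13 mitochondrially encoded genes the median log2 fold change was -0.14.

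Of the remaining lists, none had a median beyond 0.3 on the log2 scale in either direction. Medians were 0.07 for astrocytes, 0.06 for reactive astrocytes, 0.09 for myelinating oligodendrocytes and 0.06 for their precursors. They were 0.10 for interneurons, 0.00 for cholinergic neurons and 0.19 for blood cells. Heat shock proteins had a median of -0.02, circadian clock genes -0.03, cholesterol synthesis 0.03, neurotrophins and their receptors 0.07 and gonadal steroid receptors and enzymes 0.01. MHC class II had 0.29, also without the cohort 3 controls, and nucleic acid sensors with interferon signalling factors had 0.08, or -0.05 without them. Sex-linked lists were near 0, with 0.04 for Y-linked genes, 0.02 for genes that escape X inactivation and -0.06 for 7 X genes reported to be copied onto the Y- chromosome of this model.

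**Figure D5:**
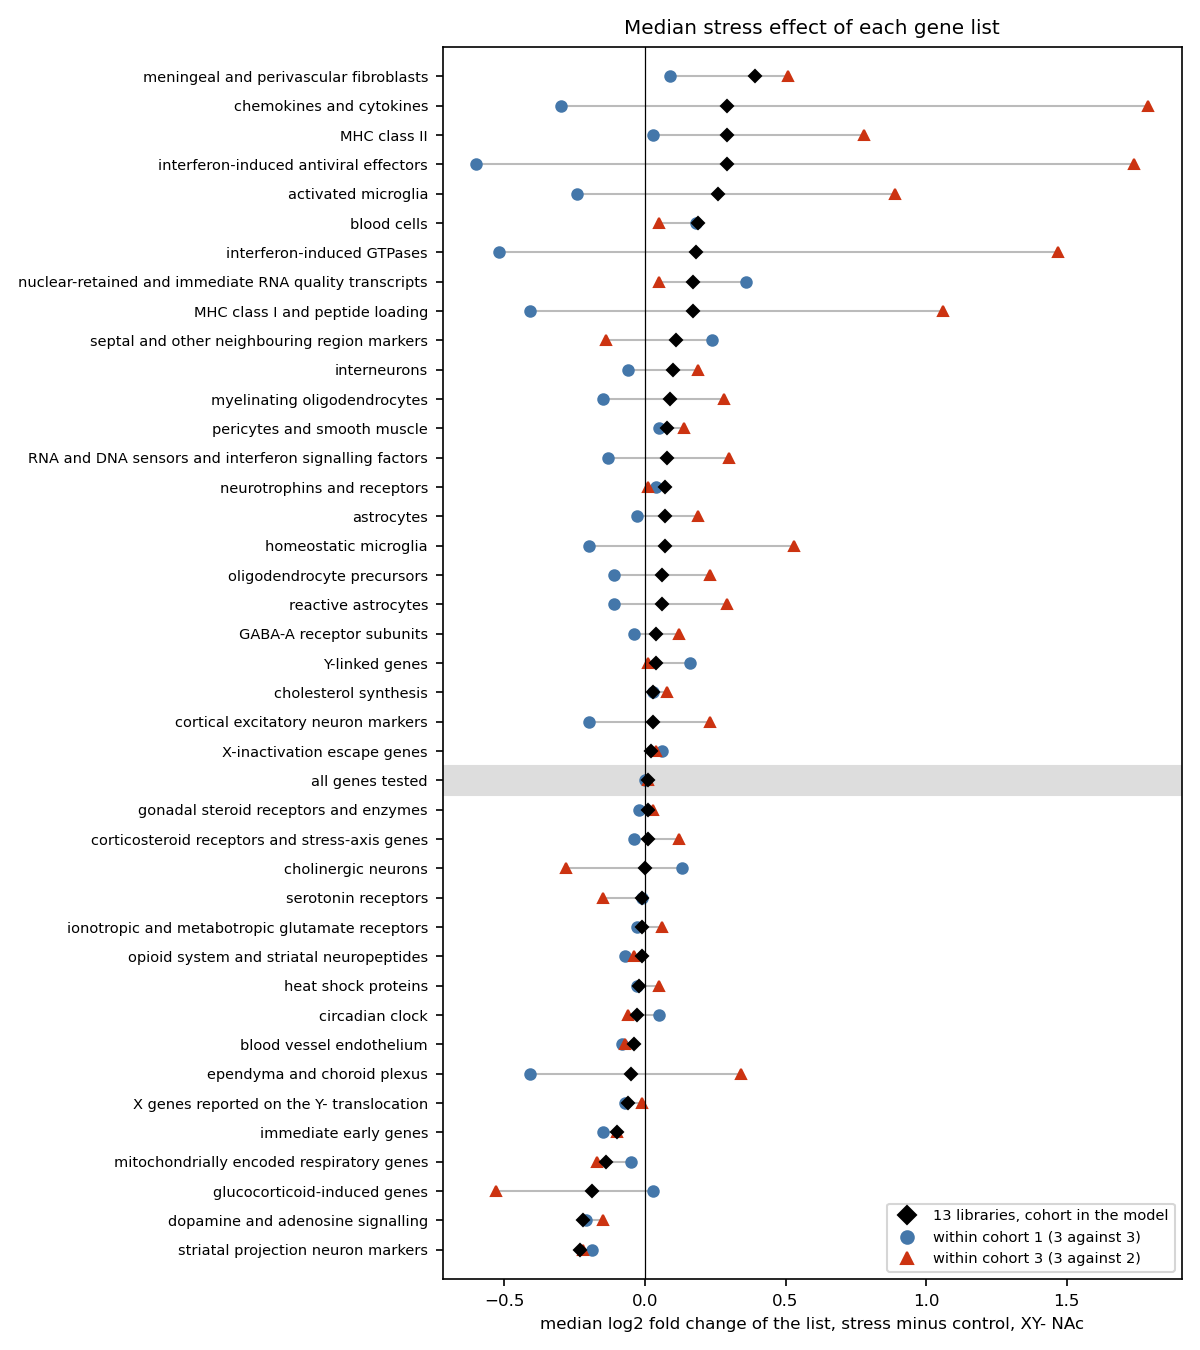
Median log2 fold change of each of 40 gene lists, stress minus control in the NAc of XY- mice (horizontal axis), over the 13 libraries (black), within cohort 1 (blue) and within cohort 3 (red); the grey band is the median of all genes tested. Interferon-induced antiviral effectors lie at -0.60 in cohort 1 and 1.74 in cohort 3, and the striatal list at -0.19 and -0.22.

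The stress effect in XY- mice was then set against that in the other genotypes, with all contrasts sharing the same 13 XY- libraries. Against XX mice, which also have ovaries, edgeR called 0 of 19684 genes (0%) for the difference of effects, with 762 at an unadjusted p below 0.05 (3.87%), and DESeq2 called 0. The smallest p values among named genes were those of Mrps33, a mitochondrial ribosomal protein, at -0.36 (SE 0.0923), and Rnaset2b, a lysosomal ribonuclease with a near-identical copy, at 1.64 (SE 0.437). The Rnaset2b value rests on Stress replicate 14, at 11.6 CPM. Against the mean effect of the other 3 genotypes 0 genes were called (0%), with 1005 at an unadjusted p below 0.05 (5.11%) and 0 by DESeq2. Trpc5 at 0.67 and Lyplal1, which encodes a lysophospholipase-like protein, at 0.53 had the smallest p.

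Against XY-Sry mice, which carry the same sex chromosomes but have testes and the transgene, edgeR called 1 gene (0.00508%), with 1474 at an unadjusted p below 0.05 (7.49%). The called gene was Trpc5 (chrX:144381671-144688180, - strand). In XY- mice Trpc5 averaged 14.3 ± 3.88 CPM in Stress and 9.67 ± 1.25 CPM in Control libraries. In XY-Sry mice it averaged 9.42 ± 2.43 CPM in Stress (n = 6) and 12.8 ± 2.69 CPM in Control (n = 6), a difference in the other direction. The log2 difference of the effects was 1.07 (SE 0.197, edgeR adjusted p = 0.0405). DESeq2 called 2 genes and limma-voom 4. The call was lost without the cohort term (adjusted p = 0.194), without the cohort 3 controls (adjusted p = 0.3) and on leaving out any of 9 of the 13 XY- libraries, while the log2 difference stayed between 0.95 and 1.10 in these 11 settings. In XX mice Trpc5 averaged 11.1 ± 2.32 CPM in Stress and 12.1 ± 1.58 CPM in Control, and in XXSry mice 12.7 ± 1.28 CPM in Stress and 10.2 ± 1.04 CPM in Control.

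For the glucocorticoid-induced genes the other genotypes gave values near 0. The log2 fold change of Sgk1 was -0.02 in XX, 0.04 in XXSry and 0.21 in XY-Sry mice, and list medians were -0.07, 0.03 and 0.00. The difference of the Sgk1 effect in XY- from their mean was -0.69 (SE 0.18, edgeR adjusted p = 0.77), which did not pass. XX and XXSry mice had 0 controls in cohort 3 and XY-Sry mice had 1, so genotype and cohort cannot be told apart here. The list median in XY- mice was -0.19, or 0.08 without their cohort 3 controls. For the striatal list the medians were 0.02 in XX, -0.15 in XXSry and 0.30 in XY-Sry mice.

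In the PFC of the same 13 XY- mice the effect of stress was compared with that in the NAc. edgeR called 0 of 19502 genes (0%) for the difference between regions, with 496 at an unadjusted p below 0.05 (2.54%), and DESeq2 called 0 as well. Actn2, an actin cross-linker of dendritic spines, and Pmepa1, a membrane adaptor that dampens TGF-beta signalling, had the smallest p, with log2 differences of -0.54 (SE 0.137) and -0.49 (SE 0.124). In the NAc, Pmepa1 ran from 32.6 to 47.6 CPM in Stress (median 40.2) and from 44.6 to 61.0 CPM in Control (median 50.7). The glucocorticoid-induced list had a median of -0.27 in the PFC against -0.19 in the NAc, with the same 2 controls in both.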

How the data were processed

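Whole-number counts per gene were deposited by the authors in 1 table for the NAc and 1 for the PFC. The tools named in the submitters' processing notes are HISAT2 2.2.0, DESeq2, edgeR, Trimmomatic 0.38 and FastQC 0.11.9, and the build is GRCm38 (mm10). What each did, which program counted reads and whether it used strand is not stated in those notes or the labels. Per the labels' protocols, polyA libraries were made from tissue punches and sequenced as read pairs. Total counts of the 13 libraries ran from 65 M to 79.9 M, and 0 columns of per-sample values were left unused.

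From these counts, edgeR 4.0.16 (R 4.3.3) fitted 8 genotype and treatment means plus cohort to the 48 NAc libraries, with TMM scaling, a filter on low counts that kept 19684 of 19918 genes, and the robust quasi-likelihood test. Standard errors are the log2 fold change over the square root of F. A gene is called at a Benjamini-Hochberg adjusted p below 0.05. Each p-value of this fit sets a difference against the spread between animals, estimated over all 48 NAc libraries and not over the XY- mice alone. Contrasts between genotypes used the same fit, and the contrast between regions used the NAc and PFC libraries of the XY- mice. Alternatives were DESeq2 1.42.0, limma-voom with sample weights (limma 3.58.1), 2 surrogate variables (sva 3.50.0), other scalings, filters and covariates, single cohorts, and each library left out in turn. NAc and PFC libraries with the same number come from the same animal, per the titles in the labels, and so are paired. The contrast between regions was fitted without the animal as a block, and with it as an alternative. Deviations of same-numbered NAc and PFC libraries were taken from the mean of their region, treatment and cohort. Over 13312 genes they had a median correlation of 0.063 (-0.0893 to 0.183), above 0.1 in 3 of 13 animals. With their own number, 2 animals matched best. Each such mean rests on 2 or 3 mice and removes what those mice share, so the low correlation says little about the pairing.

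Named genes were, first, the 10 with the smallest p in each direction and those leading the contrasts between genotypes and regions. These all had a mean log2 CPM not below 0, and none was a predicted gene. Genes leading the cohort contrasts, up to 6 members of each described list and markers that check the labels were added without that limit. Some of the added genes, such as Clec7a and Lcn2, lie near the detection limit. The members of the comparison and the 40 gene lists were chosen with earlier results of these data known, and Hif3a, Sult1a1, Tsc22d3, Nr3c1, Fos, Ifit1, Oasl2 and genes added in the closing observations were chosen after their values were seen, as were the remaining glucocorticoid-induced members printed for completeness. Of 19918 gene IDs, 19795 were found in GENCODE M21 (GRCm38) for names and positions, and 5332 genes overlap a measured gene on the other strand. Promoter windows are RefSeq sequences of GRCm38.p6.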

Additional observations from a re-analysis of the deposited data

Results flagged for a closer look

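Among 106 named genes checked within each treatment group of the XY- NAc libraries, a single library stood far from the others of its group in 20 of 212 groups, and chance gives about 1 in 20. Control replicate 16 of cohort 3 was lowest of the controls for Pde10a at 624 CPM, Adora2a at 86.2 CPM, Pde1b at 603 CPM, Drd1 at 197 CPM and Drd2 at 51.8 CPM, and highest for Ttr at 4.96 CPM. Stress replicate 41 was highest of the Stress libraries for Cybb at 4.85 CPM, Clec7a at 2.67 CPM, Slfn5 at 9.38 CPM and the chemokine Cxcl16 at 3.02 CPM. Stress replicate 26 was highest for Nlrc3 at 2.85 CPM, Adcyap1r1 at 349.9 CPM and Xist at 2.28 CPM. Stress replicate 14 held the highest Rnaset2b of its group at 11.6 CPM, and Control replicate 13 the highest of the controls at 2.81 CPM. Control replicate 36 was highest for Dusp5 at 6.87 CPM, Fcrls at 26.5 CPM and Kdm5d at 69.7 CPM and lowest for mt-Nd3 at 0.123 CPM, and Control replicate 5 was highest for mt-Atp6 at 66.4 CPM.

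The effect of stress differed between groups past the adjusted threshold of edgeR for the following genes. Trpc5 had a log2 difference of 1.07 between XY- and XY-Sry mice in the NAc. Between cohorts 3 and 1, in the NAc of XY- mice, the log2 difference was -3.47 for Plin4, -1.93 for Hif3a and -1.33 for Sgk1. In the PFC of the same mice it was -1.58 for Hif3a, -0.71 for Sgk1, -0.59 for Fkbp5, -1.78 for Sult1a1 and -0.64 for Tsc22d3. All of the cohort differences share the cohort 3 controls, replicates 16 and 19.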

How the results depend on the processing

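Stress against control in XY- mice gave 0 called genes in every setting run except within cohort 3, where 3 were called (Plin4, Sgk1 and Tmem181b-ps, all lower), and without Stress replicate 15, where 1 was, so that leaving out each library in turn gave 0 to 1. Genes at an unadjusted p below 0.05 then numbered 570 to 1243. The XY- and XY-Sry difference, 1 gene, became 2 with DESeq2, 4 with limma-voom, 0 without the cohort term, 0 without the cohort 3 controls and 0 to 2 on leaving out each XY- library. The cohort difference in the NAc, 3 genes, became 196 with DESeq2, 7 with limma-voom and 0 to 19 on leaving out each library. In the PFC its 198 genes became 929 with DESeq2. The cause of these changes was not tested. The settings without the cohort 3 controls, and all tests of the cohort difference, were added after seeing the data. Among the 106 named genes the log2 fold change changed sign in 25 within cohort 1, 7 within cohort 3, 10 without the cohort 3 controls and 8 with limma-voom, and in 0 with DESeq2, its size factors, no filter or a stricter filter (98 genes there). Fitted with the animal number as a replicate block, the NAc and PFC comparison had 0 called genes, as without the block, with 499 at an unadjusted p below 0.05. The median standard error of 0.121 and the absence of stressed cohort 2 mice limit small differences, and depth limits low genes such as Lcn2 most.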

Other observations

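Genes whose Stress and Control libraries did not overlap are named here after their values were seen, and none passed the adjusted threshold of edgeR. As given above, they were 0.0356% of the genes tested on the higher side and 0.0508% on the lower side. How many genes random labels would separate was not computed, so separation alone shows no effect of stress. Besides Bach2, the higher ones with a usual gene name were Ptprg, a receptor tyrosine phosphatase, with 119.9 ± 2.80 CPM in Stress and 103 ± 7.59 CPM in Control libraries (SD, n = 6 and 7), and Tmem37, a calcium channel-related membrane protein, with 0.491 ± 0.106 CPM in Stress and 0.195 ± 0.0860 CPM in Control. Their log2 fold changes were 0.20 (SE 0.0873) for Ptprg and 1.35 (SE 0.405) for Tmem37. Besides Sumo2 and Tmem41a, the lower ones included Cbr3, a carbonyl reductase, with 10.05 ± 1.35 CPM in Stress and 13.02 ± 1.32 CPM in Control. Snn, which encodes stannin, averaged 168 ± 11.05 CPM in Stress and 190.3 ± 8.78 CPM in Control, a log2 fold change of -0.17 (SE 0.0523). Fam118b was at -0.16 (SE 0.056) and the RNA-binding protein gene Rbm47, with 0.159 CPM in Stress and 0.311 CPM in Control, at -0.95 (SE 0.38).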
